A study of Mus musculus with 14 samples.

Results

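Myeloid cells sorted as GFP+CD11b+ from the spleens of naïve mice were compared with the same sorted cells from the bone marrow of naïve mice. The comparison rests on 4 of the 14 arrays of the study, the 2 titled as naïve spleen (naïve spleens 1 and 2) and the 2 titled as naïve bone marrow (naïve marrow 1 and 2), and on all 45281 probes of the array. The mice of all groups were C57Bl/6J and 14 weeks old. The naïve mice carried no tumor and had been used because viable spleen and bone marrow cells could not be obtained from mice with EO771 tumors. GFP marked hematopoietic cells of donors in which the ubiquitin C promoter drives GFP, which had been given to irradiated recipients. The study describes this chimerism for the tumor-bearing mice, and whether the naïve mice were chimeric in the same way is not given in the sources used here. The 3 spleens and 1 bone marrow array of mice with intracranial PyMT breast cancer BrM (PyMT spleens 1, 2 and 3 and PyMT marrow) served as a second set of mice for the same tissue difference, and 6 BrM arrays entered only the estimate of spread. All values are log2 signals on Illumina MouseWG-6 v2 arrays, so a difference of 1 is a 2-fold difference in signal. In such sorted bulk samples, a smaller number of cells of a type and less RNA per cell cannot be told apart.

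The bone marrow is where neutrophils, monocytes, eosinophils, platelets and red cells are formed, and where B cells pass through their precursor stages. Neutrophil granules are filled in order, with azurophil granule proteins made in promyelocytes and specific granule proteins later. The spleen filters blood. Its red pulp macrophages clear aged red cells and recycle iron, macrophages of the marginal zone take up blood-borne particles, and its white pulp holds mature B cells, T cells and dendritic cells. MHC class II molecules, which present peptides to CD4+ T cells, are made by dendritic cells, B cells and macrophages. CD11b, the sort marker, is the integrin chain encoded by Itgam and is also carried by some B cells and NK cells.

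The arrays were first compared with each other over the 5055 bright probes, those with a mean log2 signal above 8. The SD of the difference between naïve marrow 1 and naïve marrow 2 was 0.121, and 0 of the 5055 probes differed by more than 2-fold. Between naïve spleens 1 and 2 the SD was 0.372, with 67 such probes, and between the 2 EO771 BrM it was 0.297, with 57 such probes. Over these bright probes the naïve marrow arrays were therefore closer to each other than any other pair of the same group. Over all probes this did not hold. There the SD was 0.579 for the naïve marrow arrays and 0.576 for the 2 EO771 BrM, with 3623 and 3475 probes over 2-fold apart. The codes in the titles of naïve marrow 1 and 2 share a stem. Naïve spleen 1 shares the number of that stem and naïve spleen 2 does not, and PyMT spleen 1 shares a stem with PyMT marrow. The labels do not say whether a stem stands for a mouse. The methods count the arrays as biological replicates. Values are given for both naïve marrow arrays, and the counts of called probes and of called list genes are also given with their mean entered as 1 sample. The second departure concerned the array labelled PyMT spleen 2, which is in neither naïve group but enters the shared estimate of spread. Over all probes its correlation with PyMT marrow was r = 0.949, while with PyMT spleens 1 and 3 it was 0.907 and 0.904. Over the bright probes its SD of difference was 0.381 from PyMT marrow, 0.948 from PyMT spleen 1 and 1.04 from PyMT spleen 3.

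**Figure D1:**
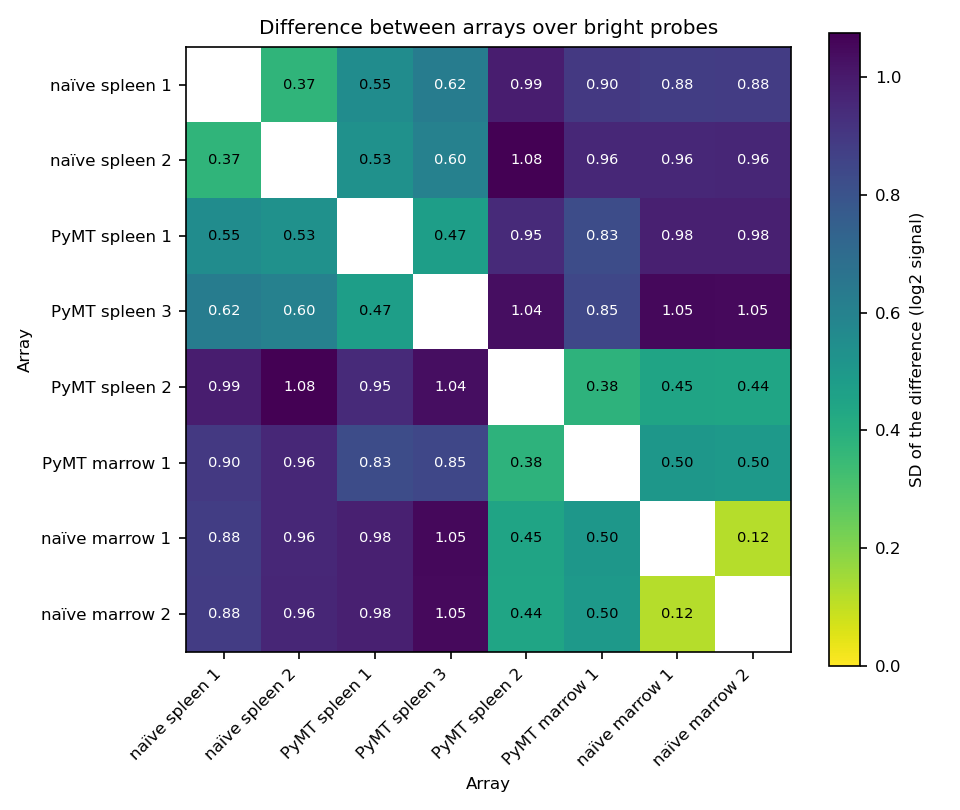
Each cell gives the SD, over the 5055 bright probes, of the log2 difference between 2 of the 8 spleen and bone marrow arrays. The array labelled PyMT spleen 2 lies nearer the 3 bone marrow arrays (0.38 to 0.45) than the 4 other spleen arrays (0.95 to 1.08), and the naïve marrow arrays differ least (0.12).

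With all 14 arrays in the fit, no probe was called between naïve spleen and naïve bone marrow at an adjusted p under 0.01 (limma, 0% of probes in either direction). At an unadjusted p under 0.05 there were 6794 probes (15.0%), 3640 higher and 3154 lower in the spleen. The lowest adjusted p was 0.0137, for a probe with no gene symbol that read 6.58 and 6.74 in naïve spleens 1 and 2 and 3.98 and 3.69 in naïve marrow 1 and 2. The call depended on the array labelled PyMT spleen 2. Without it the differences were the same by construction and the spread was smaller, and 948 probes (2.09%, 614 named genes) were called higher in the naïve spleen and 533 (1.18%, 369 named genes) lower. Among them, 507 and 217 differed by more than 4-fold, and 67 and 4 by more than 16-fold. This fit of 13 arrays was added after the data had been seen, and it is named the 13-array fit here. When the naïve marrow arrays were in addition entered as 1 sample (the single-marrow fit), 171 probes (0.378%) were called higher and 28 (0.0618%) lower. The lone marrow value is then taken to vary like the other groups. All 171 and all 28 were also called in the 13-array fit. Counts of called list genes below are those of the 13-array fit, and those of the single-marrow fit are named as such. Standard errors (SE) and adjusted p-values (padj) are from the 13-array fit unless another is named. With all 14 arrays no gene named below passed the threshold.

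The tissue difference was also measured in the mice with PyMT BrM. Their arrays enter the spread of the 13-array fit and not its naïve differences. Calling therefore favors probes where PyMT spleens 1 and 3 read alike, and such probes more readily lie on 1 side of PyMT marrow. The shares of called probes below are thus not fully comparable with those of all probes. Of the 948 probes called higher in the naïve spleen, 918 (96.8%) read higher in both PyMT spleens 1 and 3 than in PyMT marrow, against 35.5% of all probes. Of the 533 called lower, 520 (97.6%) read lower in both, against 35.2% of all probes. Fewer passed the PyMT comparison of the 13-array fit, with 152 of the 948 called higher and 93 of the 533 called lower. It has a single marrow array, and its spread is estimated from all 13 arrays, the naïve ones included. In the PyMT comparison 0.446% of all probes were called higher and 0.256% lower. The array labelled PyMT spleen 2 lay nearer the naïve marrow mean than the naïve spleen mean for 878 of the 948 and 499 of the 533 probes. For PyMT spleen 1 these numbers were 58 and 56, and for PyMT spleen 3 they were 72 and 50. The probes were called only with the array labelled PyMT spleen 2 left out. That choice favors probes where it lay far from PyMT spleens 1 and 3. These counts are therefore no independent measure of its likeness to bone marrow.

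A set of 35 gene lists described the cell types and processes of both tissues. Of the 465 listed genes, 435 were measured, each by its brightest probe. The 13-array fit called 53 of them higher and 26 lower in the naïve spleen, and the single-marrow fit called 19 and 4. Among all probes, the 13-array fit called 2.09% higher and 1.18% lower, the shares against which the counts of each list below can be read. The median difference of all probes was -0.04. The B cell, MHC class II and red pulp macrophage lists had the highest medians (3.04, 2.51 and 2.38), and the azurophil granule and platelet lists had the lowest, that of the azurophil granule list being -2.10. The dendritic cell, NK cell, marginal zone macrophage and T cell lists had medians of 1.20, 1.09, 0.81 and 0.70, and those of myeloid transcription factors and of non-classical and classical monocytes were 0.44, 0.22 and -0.44. The specific granule, eosinophil, mitosis, B cell precursor, mature neutrophil, DNA replication and basophil lists had medians of -1.67, -1.37, -1.24, -1.17, -1.09, -0.93 and -0.83.

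**Figure D2:**
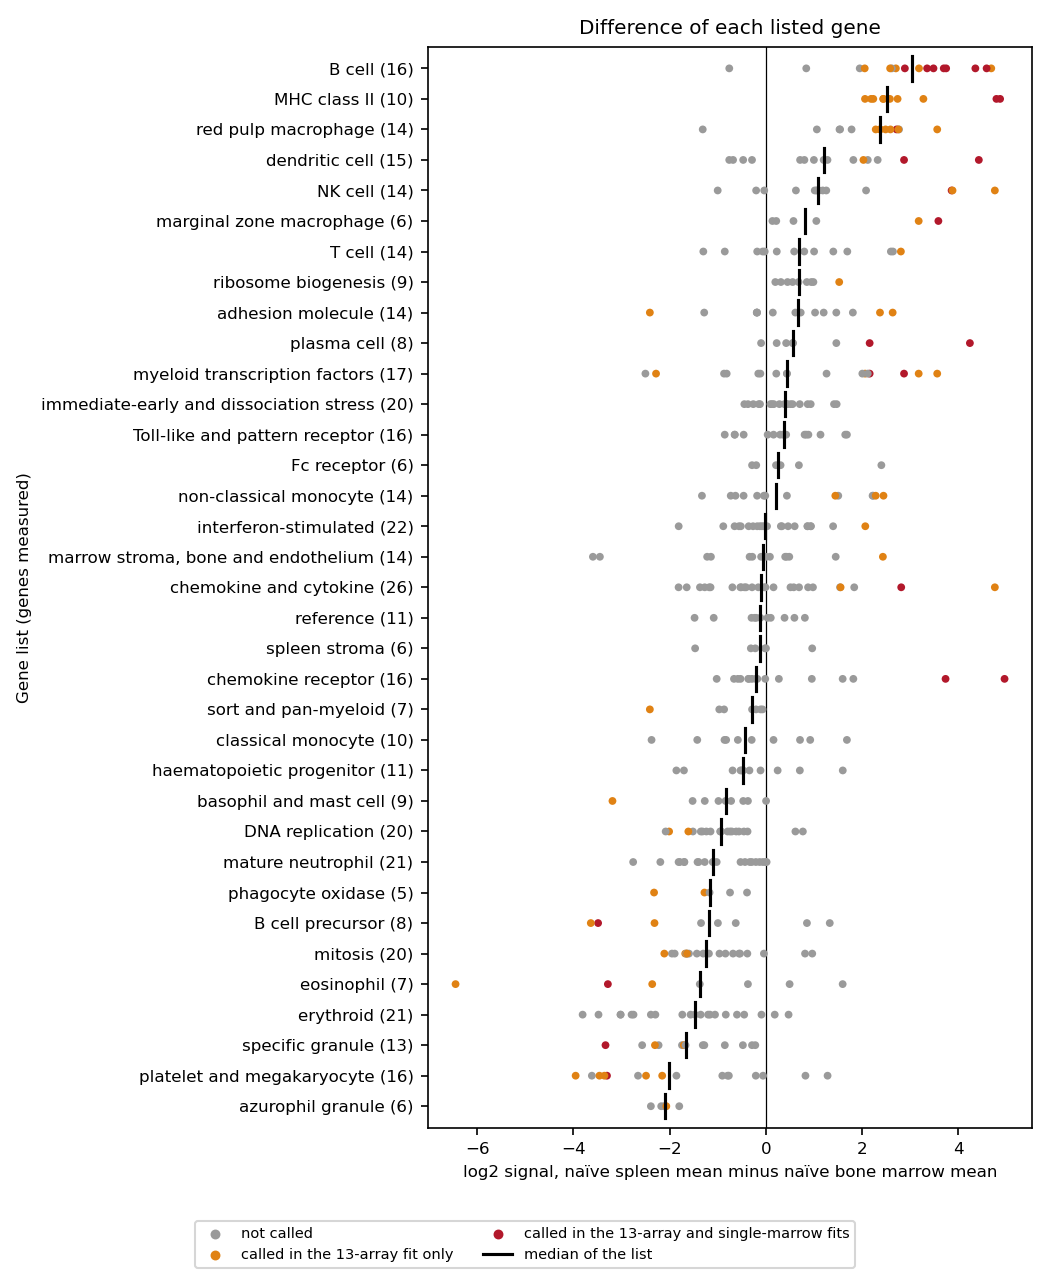
Each point is 1 listed gene, placed by its log2 difference between the naïve spleen and naïve bone marrow means, with gene lists in rows ordered by their median (black line). All 10 MHC class II genes lie above 2, and all 6 azurophil granule genes lie below -1.7. Colors mark genes called in the 13-array fit only or in both that and the single-marrow fit.

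All 10 measured MHC class II genes were called higher in the naïve spleen in the 13-array fit, and 2, H2-Oa and H2-Ob, in the single-marrow fit. The differences ran from 2.06 to 4.87. Both naïve spleens read above both naïve marrow arrays for every member, as they did for 23.9% of all probes. H2-Ab1, the beta chain of I-A, was among the brightest, at 14.15 and 14.07 in naïve spleens 1 and 2 against 11.85 and 11.89 in naïve marrow 1 and 2. Its difference was 2.24 (SE 0.29, padj = 0.0016). The probes thus read a clear signal in bone marrow cells as well. H2-Aa, the alpha chain of I-A, read 12.33 and 11.76 in the spleens and 9.64 and 9.56 in the marrow. Cd74, the invariant chain that guides class II molecules to the endosome, read 14.19 and 14.10 against 12.04 and 12.12. H2-Oa and H2-Ob, the chains of H2-O, which restrains peptide loading and is best known from B cells, differed most. H2-Ob read 10.03 and 9.66 against 4.81 and 5.14 (difference 4.87, SE 0.30, padj = 1.13e-04, and 0.00278 in the single-marrow fit). H2-Oa read 11.69 and 11.20 against 6.66 and 6.64 (difference 4.80, SE 0.46, padj = 3.21e-04). Ciita, the coactivator that switches on class II genes, read 10.44 and 9.54 against 6.65 and 6.78 (difference 3.28, padj = 0.00246). In the PyMT mice all 10 genes read higher in spleens 1 and 3 than in the marrow, as did 35.5% of all probes. Their median difference was 1.98.

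Class II promoters are known for a Y box, an inverted CCAAT box bound by NF-Y. Because these genes differed together, the 250 bases upstream of their start sites were searched for the letters CCAAT on both strands. RefSeq promoter windows (GRCm38.p6) were matched for 7 of the 10 genes (not H2-Ab1, Cd74 and Ciita), and 6 of the 7 held the letters, against 34.5% of 27025 windows. Windows are shown for H2-Ob and H2-Oa, the members with the largest differences, and for H2-Aa and H2-Eb1, the chains of the classical molecules. Each is printed 5′ to 3′ on the strand of the gene, with the matched letters (ATTGG is CCAAT on the other strand) in capitals.

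H2-Ob, chr17:34238655-34238904, plus strand: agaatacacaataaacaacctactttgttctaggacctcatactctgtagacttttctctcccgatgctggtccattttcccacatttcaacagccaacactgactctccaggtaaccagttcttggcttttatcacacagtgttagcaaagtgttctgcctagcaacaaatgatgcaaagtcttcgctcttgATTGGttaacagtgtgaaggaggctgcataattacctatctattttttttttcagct
H2-Oa, chr17:34092129-34092378, plus strand: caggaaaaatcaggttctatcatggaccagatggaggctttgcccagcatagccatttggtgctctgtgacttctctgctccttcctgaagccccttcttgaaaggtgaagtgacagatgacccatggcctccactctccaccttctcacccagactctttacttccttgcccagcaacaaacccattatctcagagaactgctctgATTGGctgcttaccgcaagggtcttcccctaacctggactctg
H2-Aa, chr17:34287824-34288073, minus strand: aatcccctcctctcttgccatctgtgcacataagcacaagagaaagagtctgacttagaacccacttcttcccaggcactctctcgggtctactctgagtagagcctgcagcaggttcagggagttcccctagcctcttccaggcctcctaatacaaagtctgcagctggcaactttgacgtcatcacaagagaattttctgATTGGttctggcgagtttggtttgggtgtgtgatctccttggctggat
H2-Eb1, chr17:34305617-34305866, plus strand: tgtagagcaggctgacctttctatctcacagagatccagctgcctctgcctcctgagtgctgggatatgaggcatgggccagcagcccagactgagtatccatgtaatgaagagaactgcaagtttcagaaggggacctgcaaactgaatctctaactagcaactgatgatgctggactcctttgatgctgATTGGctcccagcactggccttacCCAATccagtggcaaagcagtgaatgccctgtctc

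The match began 57 bases before the start site in H2-Ob, 43 in H2-Oa and 48 in H2-Aa. H2-Eb1 held it 59 bases before the start as ATTGG and again 35 bases before it as CCAAT. H2-DMa was the matched member without the letters. Among the other lists with 5 or more called genes, the letters were in 5 of 12 B cell windows, 4 of 12 platelet windows, 2 of 8 red pulp macrophage windows and 3 of 14 windows of myeloid transcription factors. These are matches of letters in reference sequence, and binding was not measured.

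The B cell list was led by genes of the B cell receptor and its signaling. Of 16 measured members, 12 were called higher in the naïve spleen in the 13-array fit and 7 in the single-marrow fit, and none was called lower. Cd79b, the signaling chain of the B cell receptor, read 12.39 and 12.08 in naïve spleens 1 and 2 against 8.43 and 8.64 in naïve marrow 1 and 2. Its difference was 3.70 (SE 0.34, padj = 2.97e-04, and 0.00522 in the single-marrow fit). Fcmr, the IgM Fc receptor, read 12.35 and 11.73 against 7.45 and 7.43 (difference 4.59, SE 0.39, padj = 2.27e-04). Blk, a Src-family kinase of B cells, read 10.30 and 10.02 against 5.58 and 5.37 (difference 4.69, padj = 8.51e-04, and 0.0122 in the single-marrow fit). Cd22, an inhibitory coreceptor, read 9.58 and 8.85 against 4.90 and 4.82. Ms4a1, which encodes CD20, was dimmer in both tissues, at 7.14 and 6.57 against 3.89 and 4.03 (difference 2.89, SE 0.25). Pax5, the factor that sets B cell identity, was not bright in any of the 4 arrays, with values from 3.24 to 4.31. The summed linear signal of the list was 19175 and 13495 in the naïve spleens and 1233 and 1262 in the naïve marrow. It was 18307 and 17670 in PyMT spleens 1 and 3, 2652 in PyMT marrow and 1547 in the array labelled PyMT spleen 2. B cell genes thus moved with the MHC class II genes, and their part in that difference was not tested.

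Several of the largest differences lay in chemokine receptors of B cells and in genes outside the lists. Ccr6, a chemokine receptor of B cells and some dendritic cells, read 9.04 and 8.65 in the naïve spleens and 4.07 and 3.70 in the marrow (difference 4.96, SE 0.33, padj = 1.13e-04). Cxcr5, which guides B cells to follicles, read 8.31 and 7.91 against 4.12 and 4.63 (difference 3.74, SE 0.28). They were the only 2 of 16 chemokine receptors called in either direction, in the 13-array and in the single-marrow fit. Dtx1, a regulator of Notch signaling, read 9.58 and 9.29 against 4.18 and 2.98 (difference 5.86, SE 0.41). The widest difference was that of C6, a terminal component of complement, at 9.48 and 11.37 against 0.78 and 3.32 (difference 8.37, SE 0.90, padj = 5.71e-04). The C6 values in the marrow lay below the median of all probes, 4.06, where signal is close to background, and a second C6 probe gave 4.33. Adam23, a member of the ADAM family, read 10.71 and 10.60 against 3.32 and 4.43 (difference 6.78, SE 0.39), while its second, dim probe gave -0.53. The other genes among the 10 with the largest differences were Ptgis, Ube2e2 and Hap1 (5.64, 5.15 and 4.85), beside the H2-O chains and Ccl5. The other 3 probes of Hap1 were dim, with differences from -0.09 to 2.10. These 10 genes, and those with the largest falls below, were ranked after the values had been seen, since no probe was called with all arrays.

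Markers of red pulp macrophages were higher in the naïve spleen for most of the list. Of 14 measured members, 8 were called higher in the 13-array fit and 1, C1qb, in the single-marrow fit. Both naïve spleens lay above both marrow arrays for 13 members, as they did for 23.9% of all probes. Spic, the transcription factor needed for these cells, read 11.13 and 11.69 in naïve spleens 1 and 2 against 7.92 and 7.76 in naïve marrow 1 and 2. Its difference was 3.56 (SE 0.48, padj = 0.0019, and 0.0221 in the single-marrow fit). Vcam1, an adhesion molecule these cells carry, read 12.99 and 14.17 against 11.26 and 11.15 (difference 2.38, padj = 0.0046). C1qb, a chain of complement C1q, read 12.21 and 13.13 against 9.99 and 9.91 (difference 2.72, padj = 5.78e-04, and 0.00953 in the single-marrow fit). C1qa, C1qc, Csf1r, Mertk and Axl, which encode complement chains and receptors for CSF1 and for apoptotic cells, were the other called members. Naïve spleen 2 read higher than naïve spleen 1 for each of these genes, and the summed linear signal of the list was 46220 and 77762 in naïve spleens 1 and 2. In the marrow it was 15588 and 14970. Hmox1, which degrades heme, read 10.89 and 11.24 against 8.34 and 8.25 and did not pass (padj = 0.0188). Slc40a1, the iron exporter ferroportin, was bright in both tissues, at 13.80 and 13.95 against 12.84 and 12.79 (padj = 0.287). Cd163, the hemoglobin scavenger receptor, read 9.58 and 11.62 in the spleens and 8.85 and 8.77 in the marrow. Cd5l had a difference of -1.31 that rested on dim signal.

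Of 6 markers of marginal zone macrophages, 2 were called higher in the 13-array fit and 1, Marco, in the single-marrow fit. Marco, a scavenger receptor, read 7.11 and 7.28 against 3.57 and 3.64 (difference 3.59, SE 0.31, padj = 2.27e-04). Nr1h3, the sterol-sensing receptor LXR alpha, read 10.57 and 10.76 against 7.42 and 7.55 (difference 3.18, padj = 0.0042). Siglec1 and Cd209b, which define metallophilic and marginal zone macrophages, had differences of 0.14 and 1.05 that did not pass. The other 2 probes of Cd209b gave 1.77 (padj = 0.00264) and 2.26 (padj = 0.0275).

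Dendritic cell and monocyte genes were split. Of 15 dendritic cell genes, Batf3, Clec4a4 and Tcf4 were called higher in the 13-array fit, and Batf3 and Clec4a4 in the single-marrow fit. Clec4a4, the lectin DCIR2, read 7.60 and 7.11 in the naïve spleens against 2.93 and 2.92 in the marrow (difference 4.43, SE 0.28, padj = 1.13e-04). Batf3, a factor of cross-presenting dendritic cells, read 9.03 and 8.86 against 6.02 and 6.11 (difference 2.88, SE 0.26). Xcr1 and Flt3 were dim, from 2.93 to 3.93 and from 3.63 to 4.32 over the 4 arrays. Over the dendritic cell list, both spleens lay above both marrow arrays for 11 genes and below them for 4, against 23.9% and 27.8% of all probes. Among 14 genes of non-classical monocytes, Pou2f2, Eno3 and Gngt2 were called higher and none lower in the 13-array fit, and none was called in the single-marrow fit. Ace and Treml4 came close (2.23 and 2.22, padj = 0.0109 and 0.0103). None of 10 classical monocyte genes was called. Both spleens lay below both marrow arrays for 6 and above them for 3, against 27.8% and 23.9% of all probes. Ly6c1 read 11.13 and 9.72 against 12.80 and 12.79, and Ccr2 read 6.36 and 5.51 against 6.45 and 6.57. Cd14, a coreceptor for lipopolysaccharide, read the other way, at 8.89 and 11.18 against 8.34 and 8.35 (padj = 0.235).

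Among 17 transcription factors of myeloid cells, 5 were called higher in the naïve spleen in the 13-array fit (Irf8, Irf4, Nr1h3, Spic and Batf3) and 1, Gfi1, lower. Irf4 and Batf3 were called in the single-marrow fit. Irf8, which directs the monocyte and dendritic cell lineages, read 8.86 and 8.93 against 6.82 and 6.83 (difference 2.07, padj = 5.87e-04, and 0.0106 in the single-marrow fit). Irf4 read 8.07 and 8.15 against 5.90 and 6.00 (difference 2.16, SE 0.22, padj = 4.22e-04). Gfi1, a repressor needed for neutrophil formation, read 7.30 and 6.78 against 9.32 and 9.32 (difference -2.28, padj = 0.0021). Cebpe, which drives the later granulocyte program, read 10.58 and 9.68 against 12.68 and 12.58 and did not pass (padj = 0.0773). Cebpb differed by 0.22 and Spi1, which encodes PU.1, by -0.81, neither of which passed.

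T and NK cell genes were measured as markers of other sorted cells. Of 14 NK cell genes, Klrd1, Klre1 and Ccl5 were called higher in the 13-array fit and Klrd1 in the single-marrow fit. Ccl5, a chemokine of T and NK cells, read 11.19 and 10.78 in the naïve spleens against 6.27 and 6.18 in the marrow (difference 4.76, SE 0.59, padj = 0.00117). Klrd1, a chain of the CD94 receptor, read 10.06 and 10.21 against 6.36 and 6.18 (difference 3.86, padj = 5.61e-04). The defining NK receptor gene Ncr1 read 2.98 and 2.85 against 3.10 and 3.13 in the marrow. Of 14 T cell genes 1, Cd2, was called higher, at 8.29 and 7.88 against 5.35 and 5.19, and in the single-marrow fit none was. Cd3e read 5.99 and 5.56 against 4.23 and 4.51 (padj = 0.134), and Cd3d differed by -0.06. Of 8 plasma cell genes, Mzb1 (difference 4.24) and Irf4 were called in both fits, while Jchain and Sdc1 stayed between 2.78 and 4.15 in all 4 arrays.

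Granule genes of neutrophils read lower in the naïve spleen. All 6 measured azurophil granule genes were lower in both spleens than in both marrow arrays, as were 27.8% of all probes, and 1, Cd63, was called lower in the 13-array fit. Mpo, which encodes myeloperoxidase, read 10.89 and 10.58 in naïve spleens 1 and 2 against 12.87 and 12.84 in naïve marrow 1 and 2. Its difference of -2.11 had an SE of 1.09 (padj = 0.344). Elane, neutrophil elastase, read 9.32 and 8.83 against 11.16 and 11.15 (difference -2.08, SE 0.69, padj = 0.108). Cd63, a tetraspanin of granule membranes, read 10.65 and 10.52 against 12.63 and 12.68 (difference -2.07, SE 0.22, padj = 5.87e-04, and 0.0106 in the single-marrow fit). In the PyMT mice all 6 genes read lower in spleens 1 and 3 than in the marrow, as did 35.2% of all probes. Their median difference was -2.31.

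Of 13 specific granule genes, Olfm4, Mmp8 and Fcnb were called lower in the 13-array fit, and Olfm4 in the single-marrow fit. Olfm4, which marks a subset of neutrophils, read 6.38 and 6.17 against 9.72 and 9.49 (difference -3.33, SE 0.36, padj = 5.84e-04), while a second, dim probe gave 1.10. Fcnb, a ficolin, read 9.72 and 8.40 against 11.35 and 11.37, and its second probe gave -2.385 without a call (padj = 0.0144). The most abundant genes of the list stayed near the top of the signal range in both tissues. Ltf, lactoferrin, read 14.11 and 14.25 against 14.37 and 14.43, and Camp, cathelicidin, read 13.32 and 13.40 against 13.83 and 13.85. A dimmer Ltf probe, below the top of the range, gave -2.53 (padj = 0.0268). None of 21 genes of mature neutrophils was called, though the list had a median of -1.09. Both spleens read below both marrow arrays for 15 of the 21 and above them for 0, against 27.8% and 23.9% of all probes. S100a8 and Il1b, at -0.13 and -0.01, lay near the top of a range from -2.76 to 0.018. Cxcr2 differed by -1.02.

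The gene of the sort marker differed itself. Itgam, which encodes CD11b, read 6.18 and 5.79 in the naïve spleens against 8.43 and 8.36 in the naïve marrow, and was called lower in the 13-array fit (difference -2.41, SE 0.30, padj = 0.00121, and 0.0165 in the single-marrow fit). PyMT spleens 1 and 3 read 6.35 and 5.74 and PyMT marrow 8.26. Itgb2, its partner chain, had a difference of -0.97 that did not pass (padj = 0.0628). Tyrobp, Fcer1g and Lyz1, expressed across myeloid cells, differed by -0.07, -0.28 and -0.11. Of 5 genes of the phagocyte oxidase, which makes superoxide, Ncf1 and Ncf4 were called lower in the 13-array fit (differences -2.32 and -1.27), and none in the single-marrow fit. Cyba and Rac2 also read lower in both spleens, without a call, and both probes of Cybb were dim, with differences of -0.39 and 0.016.

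**Figure D3:**
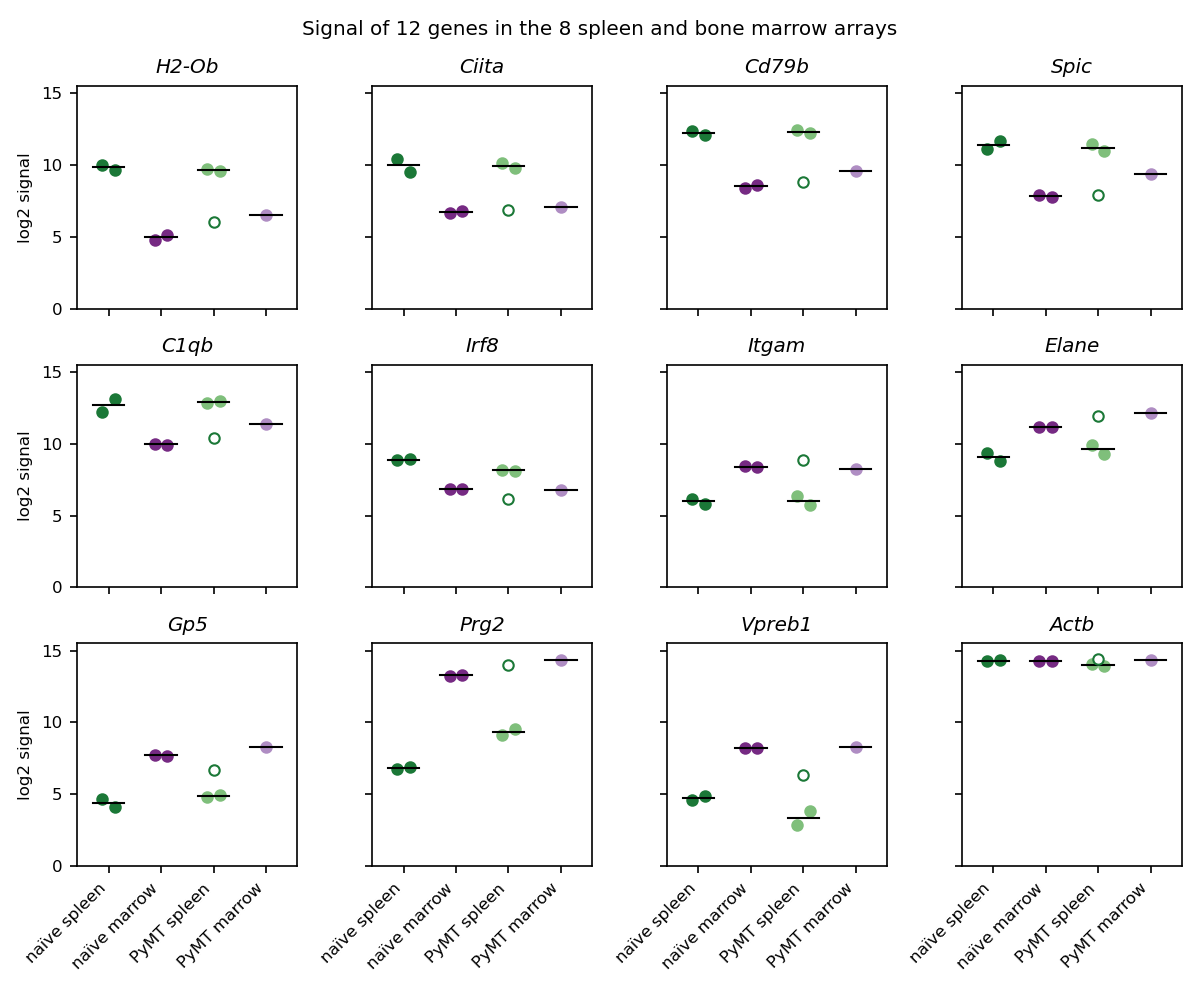
The log2 signal of 12 genes in each of the 8 spleen and bone marrow arrays, with black lines at the mean of each group. The open circle is the array labelled PyMT spleen 2, which was left out of the PyMT spleen mean. It reads with the bone marrow arrays for most of the genes, as for Cd79b, where it is 8.80 against 12.41 and 12.21 in PyMT spleens 1 and 3.

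Platelet and megakaryocyte genes formed the list with the most called falls. Of 16 measured members, 6 were called lower in the naïve spleen in the 13-array fit (Itga2b, Gp1bb, Gp5, Treml1, Tubb1 and Nfe2), and Gp5 in the single-marrow fit. Gp5, a subunit of the platelet receptor for von Willebrand factor, read 4.67 and 4.14 in naïve spleens 1 and 2 against 7.76 and 7.66 in naïve marrow 1 and 2 (difference -3.30, padj = 1.74e-04, and 0.00367 in the single-marrow fit). Itga2b, the fibrinogen receptor chain CD41, read 4.47 and 4.67 against 8.02 and 8.03 (difference -3.46, SE 0.42, padj = 0.00109). A second Itga2b probe gave -2.17 without a call (padj = 0.017). Treml1, a receptor of platelet granules, read 3.61 and 3.66 against 7.64 and 7.53 (difference -3.95, SE 0.60, padj = 0.00336). Ppbp and Pf4, the most abundant platelet chemokines, read 4.57 and 4.55 against 8.21 and 8.14, and 4.89 and 5.35 against 7.77 and 7.78. Neither passed (padj = 0.092 and 0.0583). The summed linear signal of the list was 2106 and 1967 in the spleens and 8111 and 8055 in the marrow. Of 12 matched promoter windows, 2 (16.7%) held the GATA letters AGATAA on either strand. This is near the 10.3% of all windows, so the letters do not set the list apart. The PU.1 letters GAGGAAG were in 5 of the 12, against 10.4% of all windows. Gp5, the member with the lowest padj, held the GATA letters 93 and 77 bases before its start, both as TTATCT. Binding was not measured.

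Gp5, chr16:30310782-30311031, minus strand: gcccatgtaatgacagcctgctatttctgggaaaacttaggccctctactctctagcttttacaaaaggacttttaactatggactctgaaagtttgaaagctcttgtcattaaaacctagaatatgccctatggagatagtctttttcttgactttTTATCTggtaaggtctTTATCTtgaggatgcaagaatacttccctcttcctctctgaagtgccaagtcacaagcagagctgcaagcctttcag

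Eosinophil genes gave the largest falls. Prg2, the major basic protein of eosinophil granules, read 6.75 and 6.91 in the naïve spleens against 13.24 and 13.31 in the marrow. Its difference of -6.45 (SE 0.88) passed in the 13-array fit (padj = 0.00193) and not in the single-marrow fit (padj = 0.0221). Ear6, an eosinophil-associated ribonuclease outside the list, read 3.79 and 4.2 against 10.30 and 10.41 (difference -6.36, SE 0.47, padj = 1.55e-04). Members of this ribonuclease family are near-identical, so its probe may also read its relatives. Epx, eosinophil peroxidase, read 4.17 and 4.28 against 7.58 and 7.42 (difference -3.28, SE 0.23, padj = 1.27e-04, and 0.00292 in the single-marrow fit). Prg3 was the third called member of 7, and Epx alone of the list was called in the single-marrow fit. Of the surface receptors of mature eosinophils, Siglecf was dim in all 4 arrays, at 3.00 to 3.80, so its probe could not show a fall. Ccr3 read the other way without a call, at 7.37 and 8.15 in the spleens against 6.20 and 6.12 in the marrow (padj = 0.224). Among 9 basophil and mast cell genes, Prss34, a basophil protease, was called lower in the 13-array fit (difference -3.19, padj = 0.00325) and not in the single-marrow fit (padj = 0.0326).

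Most B cell precursor genes went the other way from mature B cell genes. Both spleens read below both marrow arrays for 6 of the 8 measured genes and above them for 2, against 27.8% and 23.9% of all probes. Vpreb1 and Igll1, which form the surrogate light chain of the pre-B cell receptor, were called lower in the naïve spleen in the 13-array fit, as was Vpreb2, among 8 measured genes. In the single-marrow fit Vpreb1 alone of the 8 was called. Vpreb1 read 4.58 and 4.91 against 8.21 and 8.24 (difference -3.48, SE 0.32, padj = 2.99e-04, and 0.00533 in the single-marrow fit). Igll1 read 4.36 and 3.10 against 7.37 and 7.36 (difference -3.64, SE 0.42, padj = 8.93e-04). Vpreb2 rested on dim signal, from -0.38 to 2.38. Rag1, Rag2 and Dntt, of antigen receptor rearrangement, lay between 1.35 and 5.05 in all 4 arrays. The other genes among the 10 largest falls were Pdzk1, Cd209f, Crtac1 and Tinagl1, with differences of -4.37, -4.16, -3.48 and -3.35.

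Red cell genes were high and variable. None of 21 erythroid genes was called, with a median difference of -1.47. Hbb-bs, a beta globin, read 12.83 and 13.61 in the naïve spleens and 14.58 and 14.58 in the marrow, where it was at the top of the signal range. Its SE was 1.67, and the PyMT spleens read 10.37 and 14.58 in PyMT spleens 1 and 3. Slc4a1, the anion exchanger of red cells, read 8.62 and 7.50 against 11.84 and 11.90 (difference -3.81, padj = 0.331). Globin probes share near-identical gene copies. The summed linear signal of the list was 21315 and 36338 in the naïve spleens and 69787 and 69056 in the naïve marrow, so red cell RNA moved with the granule and platelet genes in the naïve mice. It did not in PyMT spleen 3, where the sum was 85760 against 78036 in PyMT marrow, while the platelet sum was 2065 against 9675 and the azurophil granule sum 5827 against 32244. In PyMT spleen 1 the red cell sum was 4609.

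Cell cycle genes read lower in the naïve spleen, with few calls. Of 20 genes of DNA replication, Cdc6 and Cdc45 were called lower in the 13-array fit, and of 20 genes of mitosis, Cdk1, Kif11 and Tpx2. None passed in the single-marrow fit. Both spleens read below both marrow arrays for 17 and 14 of them, as they did for 27.8% of all probes. Cdk1, the mitotic kinase, read 7.72 and 6.85 against 8.96 and 8.96 (difference -1.67, SE 0.30, padj = 0.00789). Cdc45, of the replicative helicase, read 6.37 and 6.23 against 8.33 and 8.29 (difference -2.01, SE 0.32, padj = 0.00434). Naïve spleen 2 read lower than naïve spleen 1 for these genes. Dim further probes gave -1.07 and 0.41 for Cdk1, 0.39 for Kif11 and -0.61 for Cdc45, none of them called. Those of Cdc6 gave -1.64 (padj = 0.00833), -0.11 and 0.14. No progenitor gene of 11 passed, and the list had a median of -0.47. Both spleens read below both marrow arrays for 8 members and above them for 2, against 27.8% and 23.9% of all probes. Kit, the stem cell factor receptor, was 1 of the 2, at 10.41 and 10.16 against 8.71 and 8.65 (padj = 0.0625). Gata2, a factor of progenitors and of mast cells, read 4.70 and 4.41 against 6.13 and 6.39 (padj = 0.0205), and Cd34 read 4.12 to 4.76 in all 4 arrays.

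The remaining lists showed few calls. In the 13-array fit, Icam1 and Vcam1 were called higher and Itgam lower among 14 adhesion molecules, and of 26 chemokines and cytokines Ccl5, Cxcl16 and Il18 were called higher. Il18, a cytokine of macrophages, read 9.71 and 10.20 against 7.12 and 7.16 (difference 2.82, SE 0.26). It was the only gene of both lists called in the single-marrow fit. Gbp3 was the only 1 of 22 interferon-stimulated genes called, and Npm1 the only 1 of 9 genes of ribosome biogenesis, in the 13-array fit. Neither was called in the single-marrow fit. None of 20 immediate-early and dissociation genes, 16 Toll-like and pattern receptors, 6 Fc receptors or 6 markers of spleen stroma was called. Fos read 8.71 and 8.70 against 8.37 and 8.27. Stromal markers were dim in both tissues, with Col1a1 from 2.77 to 3.65. Cxcl12, the niche chemokine of marrow stroma, read 4.19 and 5.04 against 8.20 and 8.22 and did not pass (difference -3.59, padj = 0.0136). Pecam1, an endothelial and leukocyte adhesion molecule, was called higher in the 13-array fit (difference 2.44, padj = 0.00637) and not in the single-marrow fit (padj = 0.0537). None of 11 reference genes was called, although Gapdh differed by -1.08 (padj = 0.0335) and Pgk1 by -1.48 (padj = 0.0314). Actb differed by 0.04, and by -0.17 after cyclic loess normalization, on a probe near the top of the signal range. Other bright Actb probes gave -0.26 (padj = 0.756) and -1.04 (padj = 0.0489), and dim ones gave 0.13 and -0.63.

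The naïve and PyMT differences were set side by side for the listed genes. Across all 435, the naïve difference and that of PyMT spleens 1 and 3 from PyMT marrow had r = 0.86, given as a description, since listed genes are not independent and each axis holds array noise. Across all probes r was 0.52. The lists carried over to a different degree. The MHC class II, red pulp macrophage and azurophil granule lists had PyMT medians of 1.98, 1.21 and -2.31, against naïve medians of 2.51, 2.38 and -2.10. For the marginal zone macrophage, mature neutrophil and B cell precursor lists the PyMT medians were 0.071, -0.19 and -0.072. Their naïve medians were 0.81, -1.09 and -1.17. No probe was called for a difference between the naïve and PyMT contrasts, with a lowest adjusted p of 0.0514 with all arrays and 0.0545 in the 13-array fit (limma). At an unadjusted p under 0.05 there were 2448 and 3222 probes. With a single PyMT marrow array, a missing call does not show that the contrasts were alike. The PyMT comparison itself had 9 probes called higher (0.0199%) and 0 called lower with all arrays, at an unadjusted p under 0.05 for 1942 and 1354. The 9 were dim, with PyMT marrow values up to 0.33, and none of them was called in the naïve comparison. Tumor, mouse set and handling cannot be told apart between the naïve and PyMT mice.

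**Figure D4:**
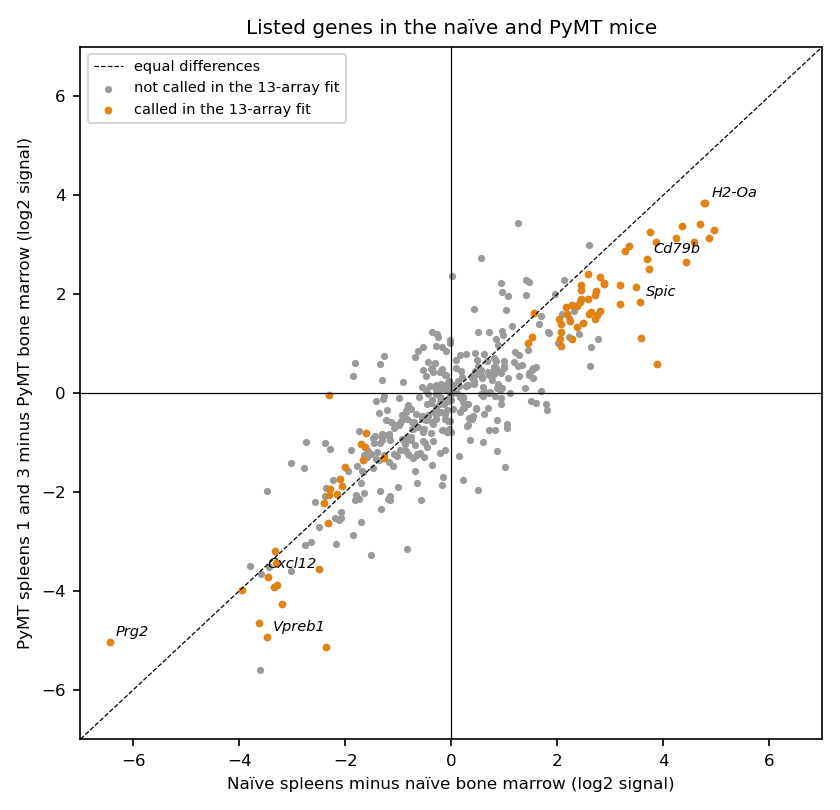
Each point is 1 of the 435 listed genes, with the log2 difference in naïve mice on the x axis and that of PyMT spleens 1 and 3 from PyMT marrow on the y axis. Most genes called in the 13-array fit (orange) lie on the same side of 0 on both axes, and Prg2, Vpreb1, Cd79b and H2-Oa lie far from 0 on both.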

How the data were processed

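GFP+CD11b+ cells of 6 conditions were measured on 14 Illumina MouseWG-6 v2 arrays. The deposited log2 values are those of the authors after background correction and quantile normalization, which sets the signal distribution of all arrays equal; their processing notes name GenomeStudio 2011.1 and limma. The background method is not given in the sources used here, and base 2 was inferred from the data (range -1.68 to 14.58). No detection p-values were used, so dim probes rest on signal near background. Of 45281 probes, 34885 carried 1 gene symbol, 18 several and 10378 none, for 19057 genes. R 4.3.3 and limma 3.58.1 (lmFit and eBayes) fitted all 14 arrays in 6 conditions. Two-sided p-values of the 45281 probes were adjusted together by the Benjamini-Hochberg method, and a probe under 0.01 was called. With 2 arrays a side, an exact permutation test of 1 gene cannot go below p = 0.333. If the naïve marrow arrays share a mouse, their spread is technical. Fits were tested on simulated data.

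The members, lists and tests were chosen with earlier results of these data known. A gene was its brightest probe. The rule for named genes took the 10 largest rises and falls among called probes without overlap, the 2 largest in each direction and first 2 measured genes of each list, and the 5 largest of the PyMT comparison and of the difference of contrasts. With no naïve calls, its ranks were taken from the 13-array fit, and other genes were named for their role after their values were seen. Alternatives were the arrays in the fit, variance models, the methods' t-test, scalings, thresholds, a filter on dim probes, blocks and leaving out arrays. Those that leave out a PyMT spleen or a BrM array in the naïve comparison, or PyMT spleen 2 in the difference of contrasts, were added after seeing the data.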

Additional observations from a re-analysis of the deposited data

How the results depend on the processing

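With all 14 arrays, 0 probes and 0 listed genes were called in either direction, also with the naïve marrow averaged, with robust eBayes, with 4 or 8 arrays in the fit, and without any single naïve, BrM or other PyMT spleen array. With the replicate block of title numbers the counts were 0 and 0; the numbers do not pair the arrays, whose same-numbered deviations had r = 0.00877. A mean-variance trend, cyclic loess, centring on the reference genes, brighter probes and an adjusted p under 0.05 each gave 1 probe higher, the unnamed probe with the lowest adjusted p. The methods' t-test gave 3841 and 4272 probes and 96 and 106 listed genes unadjusted, and 0 and 1 (Adgrf2) after adjustment. Without PyMT spleen 2 the probes were 948 and 533 and the listed genes 53 and 26. Adding a second change to that fit gave, for probes higher and lower and listed genes higher and lower, 360, 203, 32 and 13 without naïve spleen 1, 285, 106, 30 and 9 without naïve spleen 2, 196, 35, 21 and 5 without naïve marrow 1, 196, 32, 20 and 4 without naïve marrow 2, and 171, 28, 19 and 4 with the marrow averaged. They were 1775, 1240, 71 and 47 with a trend, and 976, 498, 54 and 25 with cyclic loess. Centring on reference genes gave 1170, 407, 59 and 19 (74.2% of calls higher against 64% in the 13-array fit). The counts were 750, 365, 47 and 19 with the replicate block. With the stem of the title codes as a random block they were 1057, 597, 56 and 28. With 7 arrays they were 168, 21, 22 and 4. At an adjusted p under 0.05 they were 2006, 1515, 72 and 50. No probe called in the 13-array fit changed sign in these fits. The PyMT comparison had 202 and 116 probes without PyMT spleen 2, and 0 higher with 8 arrays, a trend, or without PyMT spleen 1 or 3.

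Signs turned for the following genes, none of them called in the naïve comparison with all 14 arrays or in the 13-array fit. Actb was -0.17 after cyclic loess. Jchain, Ccnb2 and Cd3d were 0.035, 0.094 and 0.068 after centring on reference genes. Leaving out 1 naïve array at a time gave ranges of -0.43 to 0.23 for Jchain, -0.021 to 0.64 for a dim Ccr2 probe, -0.044 to 0.73 for Arhgap28, -0.91 to 0.83 for Ccnb2, -0.095 to 0.97 for Nr4a1, -0.03 to 0.47 for Cebpb, -0.17 to 2.10 for Cxcl13, -0.11 to 0.44 for Fosb and -0.58 to 0.15 for Ccl19. For Cd3d the highest value was 0.045. The cause of these changes was not tested. Signal near background and near the top of the range limits what the arrays can show, and 2 arrays a side limit the precision.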
